A study of Mus musculus with 145 samples.

Results

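The direct contrast of 40 with 20 mJ/cm2 of ultraviolet light at 6 h rests on 10 of the 145 libraries of the series, 5 at each dose, and was set up by the dose and time in the labels. It asks which early changes of the skin transcriptome grew when the dose was doubled for the last time, and which had already reached their size at 20 mJ/cm2. Each library is the poly(A) RNA of the dorsal skin of 1 mouse, exposed once under a tanning canopy of 8 fluorescent lamps (100 W each) whose output was 96.4% UVA and 3.6% UVB. The groups used were 5, 10, 20 and 40 mJ/cm2, all collected 6 h after exposure, and sham-handled mice of the same time that received no light. Every group had 5 mice, and the labels name neither strain nor sex nor age. The main fit and the means left out 1 library of 10 mJ/cm2 for its low depth. The same 2 doses at 0, 24, 48, 72 and 96 h came from other mice.

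Ultraviolet light, the UVB part above all, makes photoproducts between neighbouring pyrimidines in DNA. These lesions stall RNA polymerase, stabilise p53, which turns on genes of arrest and apoptosis, and are removed by nucleotide excision repair. Keratinocytes under stress also activate AP-1, a family of Fos and Jun transcription factors, and switch on an alternative set of keratins and cornified envelope precursors, together with cytokines and matrix metalloproteinases. Long genes hold more lesions per copy than short ones, so their transcripts are known to be sensitive to ultraviolet light.

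The 10 libraries held 6.06 to 22.6 M counts (M, mega; median 10.3 M) with 20942 to 24570 genes above 0. At each dose, replicates 1 to 3 have titles that end in R1_001 and replicates 4 and 5 in R1. What the ending marks is not stated, and it was carried in the fit. Some libraries stood apart. Replicate 4 had the lowest blood marker level of its group at both doses (mean log2 CPM, counts per M of library, of 2.86 at 40 mJ/cm2 and 2.29 at 20 mJ/cm2, against at least 4.2 and at least 3.36 in the others). Its mitochondrially encoded genes held 8.35% of the counts at 40 mJ/cm2 and 13.4% at 20 mJ/cm2, the highest share of each group. Replicate 2 of 20 mJ/cm2 had the highest level of epidermal differentiation genes, 6.18, against 4.2 to 4.72 in the other 4 libraries of that dose. Dorsal skin also carries muscle, and 25 muscle markers summed to 25990 to 86780 CPM at 40 mJ/cm2 and to 40100 to 77140 CPM at 20 mJ/cm2. In whole skin, fewer cells of a type and less RNA per cell cannot be told apart. The closest pair within a dose differed by more than counting noise (chi-square per degree of freedom of at least 8.29), so all 10 were kept as separate samples.

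No gene passed the test between 40 and 20 mJ/cm2. Of 16630 genes tested, edgeR's quasi-likelihood test called 0 at an adjusted p under 0.05 (0.0%), and the smallest adjusted p was 0.157. At an unadjusted p under 0.05 there were 1152 genes (6.93%), 451 of them higher at 40 mJ/cm2 (2.71%) and 701 lower (4.22%). DESeq2 on the same libraries called 40 genes (0.241%), 19 higher (0.114%) and 21 lower (0.126%). Every 40 mJ/cm2 library lay above every 20 mJ/cm2 library for 70 genes (0.421%) and below for 74 (0.445%). Both doses differed from sham, with 1325 genes called at 40 mJ/cm2 (7.97%; 565 up, 760 down) and 157 at 20 mJ/cm2 (0.944%; 58 up, 99 down). At lower doses edgeR called 0 genes against sham: 1402 had an unadjusted p under 0.05 at 10 mJ/cm2 (8.43%), 343 at 5 mJ/cm2 (2.06%) and 824 in the mean of both (4.95%). These comparisons share the sham mice and one fit. Differences between 40 and 20 mJ/cm2 are therefore given below as log2 values with standard errors (SE) and 95% intervals, and not as changes.

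Of the genes that differed from sham in the mean of 40 and 20 mJ/cm2, most lay further from sham at 40 than at 20 mJ/cm2. The mean of both doses differed from sham for 989 genes (5.95%), 388 up (2.33%) and 601 down (3.61%). The difference between the doses played no part in choosing them, but the libraries are the same and a gene could enter the list through a large response at 40 mJ/cm2 alone. Among the 388 genes that rose, 343 (88.4%) were higher still at 40 mJ/cm2, with a median difference of 0.28 log2, against a median of -0.0033 over all genes tested. Among the 601 that fell, 527 (87.7%) were lower still at 40 mJ/cm2, with a median difference of -0.33. An unadjusted p under 0.05 in the same direction was reached by 122 of the rises (31.4%) and 178 of the falls (29.6%), against 2.71% and 4.22% of all genes. The genes called at 20 mJ/cm2 against sham, chosen on the lower of the 2 doses, gave a median of 0.29 for 58 rises and of -0.20 for 99 falls, with 48 (82.8%) and 77 (77.8%) further from sham at 40 mJ/cm2. An unadjusted p under 0.05 in that direction was reached by 27.6% of those rises and 12.1% of those falls. For the 989 genes the medians had the same sign within each title ending, 0.17 among R1_001 libraries and 0.46 among R1 libraries for the rises, and -0.27 and -0.42 for the falls. A list that used no library of 6 h, the genes called between 40 mJ/cm2 and sham at 24 h and also tested at 6 h, gave 0.23 for 287 rises and -0.24 for 246 falls. Within the title endings those medians were 0.037 and 0.54 for the rises, and -0.066 and -0.54 for the falls.

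**Figure D1:**
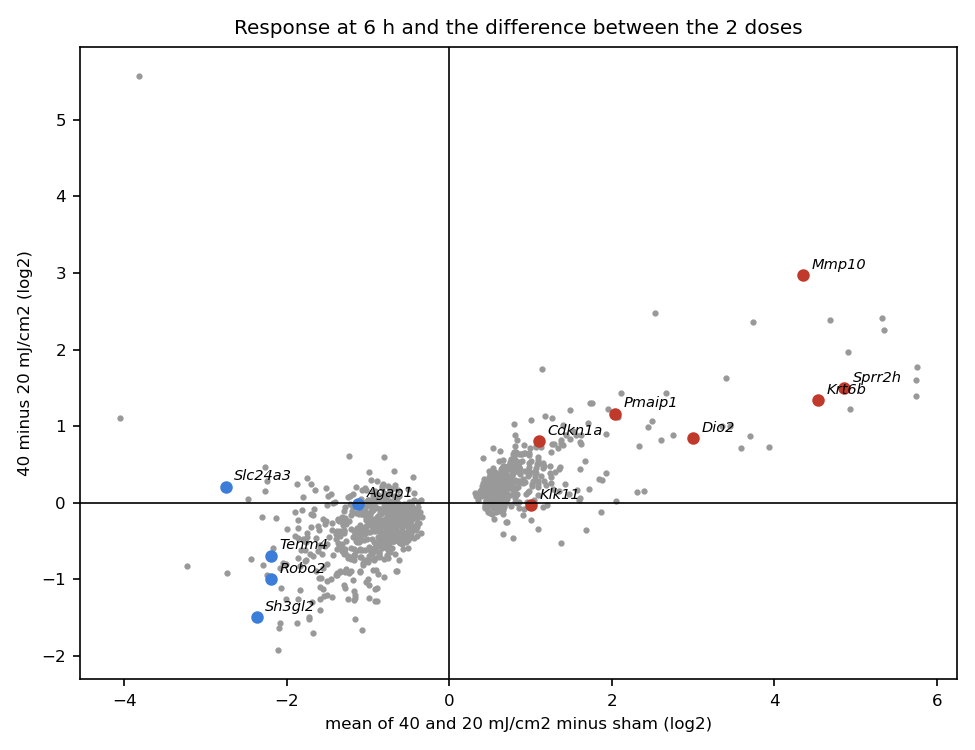
Each point is one of the 989 genes that differed from sham in the mean of both doses: the x axis gives that response and the y axis the difference 40 minus 20 mJ/cm2, both in log2 units, with named rises in red and named falls in blue. Most rises lie above 0 on the y axis (343 of 388) and most falls below it (527 of 601), while Klk11 and Agap1 lie on it.

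Genes of stressed and hyperproliferative keratinocytes had the highest median difference of the gene lists examined. Their median over 34 members tested was 0.92 log2, 30 members were above 0, and 12 members had an unadjusted p under 0.05 above 0 and 1 below, where 2.71% and 4.22% of all genes did. None passed the adjusted test. Against sham, 19 of the 34 rose and 1 fell at 40 mJ/cm2, where 3.4% and 4.57% of all genes did, and 12 rose and 0 fell at 20 mJ/cm2, where 0.349% and 0.595% did. The mean log2 CPM of the list was 3.97, 4.50, 4.57, 4.41 and 4.79 in the 40 mJ/cm2 libraries and 2.88, 4.11, 3.80, 2.49 and 3.89 in the 20 mJ/cm2 libraries. The groups overlapped only through replicate 1 of 40 mJ/cm2 and replicate 2 of 20 mJ/cm2. Without replicate 4 of both doses the median was 0.70. The calprotectin subunits S100a8 and S100a9, also stand in the neutrophil list given further on.

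Sprr2h, a small proline-rich protein cross-linked into the cornified envelope, was measured at 26.7, 62.2, 38.5, 34.0 and 40.1 CPM at 40 mJ/cm2 and at 8.84, 25.6, 17.7, 7.46 and 12.9 CPM at 20 mJ/cm2. The groups did not overlap. The difference was 1.5 ± 0.39 (SE; 95% interval 0.68 to 2.32; edgeR adjusted p = 0.311). Its relative Sprr2i stood at 2.67, 3.68, 4.05, 3.82 and 3.48 CPM at 40 mJ/cm2 and 0.264, 0.437, 0.931, 0.668 and 1.05 CPM at 20 mJ/cm2, a difference of 2.41 ± 0.51. Here too every library of the higher dose lay above every library of the lower one, as it did for Sprr2d (1.6 ± 0.50). Sprr1b overlapped, at 40.7 to 101 CPM at 40 mJ/cm2 and 16.7 to 91.5 CPM at 20 mJ/cm2. Its difference was 0.87 ± 0.47 (95% interval -0.10 to 1.84), with 0.29 among R1_001 and 1.87 among R1 libraries. Sprr1a averaged 247 ± 51.6 CPM at 40 mJ/cm2 and 119 ± 57.2 CPM at 20 mJ/cm2 (SD, n = 5 each), and 29.9 ± 8.95 CPM in sham skin. Members of the Sprr and Lce families are alike in sequence, so their estimated counts can borrow from each other.

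The wound keratins were more variable. Krt6b had 72.6, 185, 173, 208 and 233 CPM at 40 mJ/cm2, and 45.1, 69.3, 75.7, 10.8 and 125 CPM at 20 mJ/cm2. Replicate 1 of the higher dose lay below replicates 3 and 5 of the lower, and the interval of the difference, 1.34 ± 0.75, ran from -0.22 to 2.89. Krt6b rose against sham at both doses (adjusted p = 0.000919 at 40 mJ/cm2 and 0.0307 at 20 mJ/cm2). Its partner Krt16 differed by 1.00 ± 0.65 and Krt6a by 1.12 ± 0.35 between the doses. Lce3c, a late cornified envelope gene induced in injured skin, had 9.68, 14.9, 11.8, 13.8 and 20.4 CPM at 40 mJ/cm2 and 0.792, 5.07, 1.45, 2.34 and 3.97 CPM at 20 mJ/cm2, without overlap (2.35 ± 0.54). Repetin (Rptn), another envelope precursor, ranged from 1.5 to 69.3 CPM at 40 mJ/cm2 and from 3.03 to 45.9 CPM at 20 mJ/cm2, and the sign of its difference (0.73 ± 0.75) turned to -0.013 without replicate 4 of 40 mJ/cm2.

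Mmp10, which encodes stromelysin 2, a metalloproteinase of wound-edge keratinocytes, had the largest difference of the genes named by rule. It was measured at 5.84, 18.5, 7.89, 8.54 and 16.1 CPM at 40 mJ/cm2, and at 1.32, 1.75, 1.66, 0.334 and 2.02 CPM at 20 mJ/cm2. The groups were apart, and the difference was 2.97 ± 0.65 (95% interval 1.63 to 4.32; edgeR adjusted p = 0.179, DESeq2 adjusted p = 0.0114). The means were 0.193 CPM in sham skin, 0.372 CPM at 5 mJ/cm2, 0.0552 CPM at 10 mJ/cm2, 1.42 CPM at 20 mJ/cm2 and 11.4 CPM at 40 mJ/cm2. The gene rose at 40 mJ/cm2 against sham (adjusted p = 0.00018), while at 20 mJ/cm2 the adjusted p was 0.109.

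The promoters of these genes are shown because AP-1 is the classic regulator of the Sprr and stromelysin genes. Upstream bases of 6 members were taken from RefSeq on GRCm38.p6, a build other than that of the count table, and capitals mark the AP-1 element TGACTCA or its reverse complement TGAGTCA.
Mmp10, chr9:7502192-7502341, plus strand, 150 to 1 bases before the start site: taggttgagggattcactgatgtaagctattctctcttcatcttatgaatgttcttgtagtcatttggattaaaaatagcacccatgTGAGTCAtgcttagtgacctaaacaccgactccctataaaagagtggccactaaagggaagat
Sprr1a, chr3:92485882-92486051, minus strand, 170 to 1 bases before the start site: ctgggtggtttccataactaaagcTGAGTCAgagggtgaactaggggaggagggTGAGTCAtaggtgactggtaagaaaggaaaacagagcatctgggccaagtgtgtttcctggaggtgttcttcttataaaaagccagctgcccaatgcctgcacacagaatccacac
Sprr2d, chr3:92338920-92339019, plus strand, 220 to 121 bases before the start site: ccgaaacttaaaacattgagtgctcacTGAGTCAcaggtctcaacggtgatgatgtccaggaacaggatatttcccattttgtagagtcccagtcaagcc
Sprr2f, chr3:92364967-92365066, plus strand, 220 to 121 bases before the start site: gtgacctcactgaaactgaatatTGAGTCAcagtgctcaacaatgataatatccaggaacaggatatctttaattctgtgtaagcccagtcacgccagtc
Sprr2h, chr3:92385465-92385564, plus strand, 220 to 121 bases before the start site: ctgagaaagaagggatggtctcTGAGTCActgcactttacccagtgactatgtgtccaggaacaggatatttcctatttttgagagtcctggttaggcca
Sprr2i, chr3:92407771-92407870, plus strand, 220 to 121 bases before the start site: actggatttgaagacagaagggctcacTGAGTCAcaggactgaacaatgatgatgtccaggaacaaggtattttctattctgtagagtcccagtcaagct
Searched on both strands over windows of 250 bases before to 50 after the start site, the element was found in 5.2% of 32851 RefSeq windows and in 5.95% of 27025 genes. It was found in 8 of the 25 stressed keratinocyte genes with a window (32.0%), 4 of 14 metalloproteinase and inhibitor genes (28.6%) and 7 of 19 cytokine genes (36.8%). It was found in 2 of 36 epidermal differentiation genes and in 0 of 24 immediate early genes. Among the genes named by rule it occurred in Mmp10 alone of 10 genes higher at 40 mJ/cm2 and in Il20ra alone of 10 lower ones. The Sprr genes of the lists that hold the element all lie on chromosome 3, and the Mmp genes that hold it all lie on chromosome 9. Related neighbours thus weigh repeatedly in these shares. The sequences shown above are all from genes that hold the element. A match describes these letters and is not evidence of binding.

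**Figure D2:**
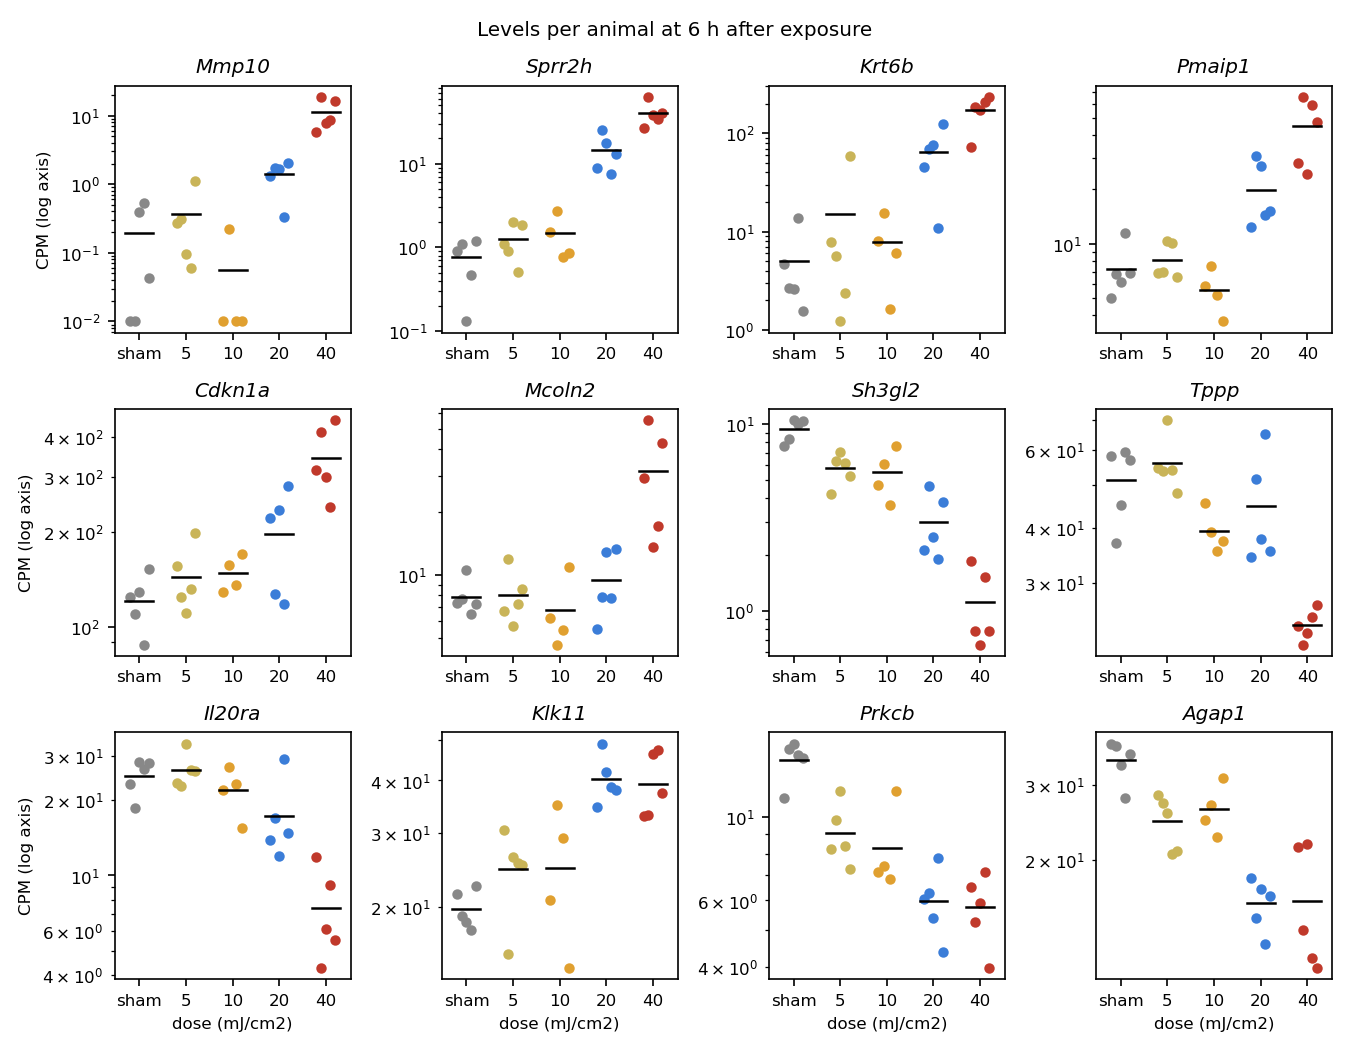
Levels of 12 genes at 6 h in CPM on a log axis, by dose from sham to 40 mJ/cm2; each point is 1 mouse and each bar the mean of a group, and values of 0 or under 0.01 CPM are drawn at 0.01. Mmp10, Sprr2h, Tppp, Il20ra, Mcoln2 and Sh3gl2 show no overlap between 40 and 20 mJ/cm2, while Klk11, Prkcb and Agap1 lie at the same height at both doses.

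The p53 targets of apoptosis were higher at 40 mJ/cm2 as a list. Of 12 members tested, 10 were above 0, 4 had an unadjusted p under 0.05 above 0 (2.71% of all genes) and the median was 0.42 log2. Against sham, 5 rose at 40 mJ/cm2 (3.4% of all genes) and 3 at 20 mJ/cm2 (0.349%). The list level was 5.11, 5.34, 5.09, 5.07 and 5.27 at 40 mJ/cm2 and 4.72, 4.51, 4.82, 4.18 and 4.86 at 20 mJ/cm2, so the groups did not overlap, and replicate 4 of 20 mJ/cm2 lay at the sham mean of 4.19. Pmaip1 (Noxa), a BH3-only protein, stood at 28.2, 65.1, 24.3, 59.1 and 47.7 CPM at 40 mJ/cm2 and 12.4, 30.8, 26.9, 14.5 and 15.2 CPM at 20 mJ/cm2. These groups overlapped, with a difference of 1.17 ± 0.31 (95% interval 0.53 to 1.80; adjusted p = 0.311). The death receptor Tnfrsf10b differed by 0.77 ± 0.26, the nuclease Aen by 0.77 ± 0.27 and the BH3-only gene Bbc3 (Puma) by 1.42 ± 0.54, the last at 2.59 ± 1.56 CPM in 40 mJ/cm2 skin and 0.887 ± 0.709 CPM in 20 mJ/cm2 skin (SD, n = 5 each).

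The p53 targets of arrest and feedback differed less. Their median was 0.17 log2 over 19 members, 12 of them above 0 and 2 with an unadjusted p under 0.05 (2.71% of all genes). Single libraries decided that median, which was 0.27, 0.057 and 0.11 without replicates 3, 4 and 5 of 40 mJ/cm2 and 0.026 without replicate 5 of 20 mJ/cm2. Cdkn1a, the p21 inhibitor of cyclin-dependent kinases, had 314, 415, 300, 240 and 453 CPM at 40 mJ/cm2 and 222, 127, 236, 118 and 281 CPM at 20 mJ/cm2. Only replicate 4 of 40 mJ/cm2 lay within the range of the lower dose. The difference was 0.81 ± 0.23 (95% interval 0.33 to 1.29; adjusted p = 0.362). Plk2, a stress kinase, differed by 0.63 ± 0.21. Mdm2, the ubiquitin ligase that limits p53, rose at 40 mJ/cm2 against sham (adjusted p = 0.00176) and averaged 120 ± 22.4 CPM there and 100 ± 19.2 CPM at 20 mJ/cm2. Its interval, -0.07 to 0.60, still allowed a 1.5-fold difference.

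Nucleotide excision repair and lesion bypass genes were level between the doses, with a median of -0.043 over 34 members and list levels of 4.67 to 4.77 at 40 mJ/cm2 and 4.59 to 4.79 at 20 mJ/cm2. The damage sensor Ddb2 was the 1 member with an unadjusted p under 0.05, where 4.22% of all genes were lower at that threshold. It stood at 12.2 ± 2.31 CPM at 40 mJ/cm2 and 16.9 ± 5.45 CPM at 20 mJ/cm2, and it fell against sham at 40 mJ/cm2 (adjusted p = 0.0077). Heat shock proteins had a median of 0.0019 over 18 members. Hsp90aa1, the inducible cytosolic chaperone, was at 462 ± 176 CPM at 40 mJ/cm2 and 378 ± 132 CPM at 20 mJ/cm2 (SD, n = 5 each). Cholesterol synthesis genes (median -0.096 over 24) and interferon stimulated genes (0.073 over 29) had 0 members with an unadjusted p under 0.05 in either direction. Of all genes, 2.71% were higher and 4.22% lower at that threshold, so lists of this size would hold few such members.

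**Figure D3:**
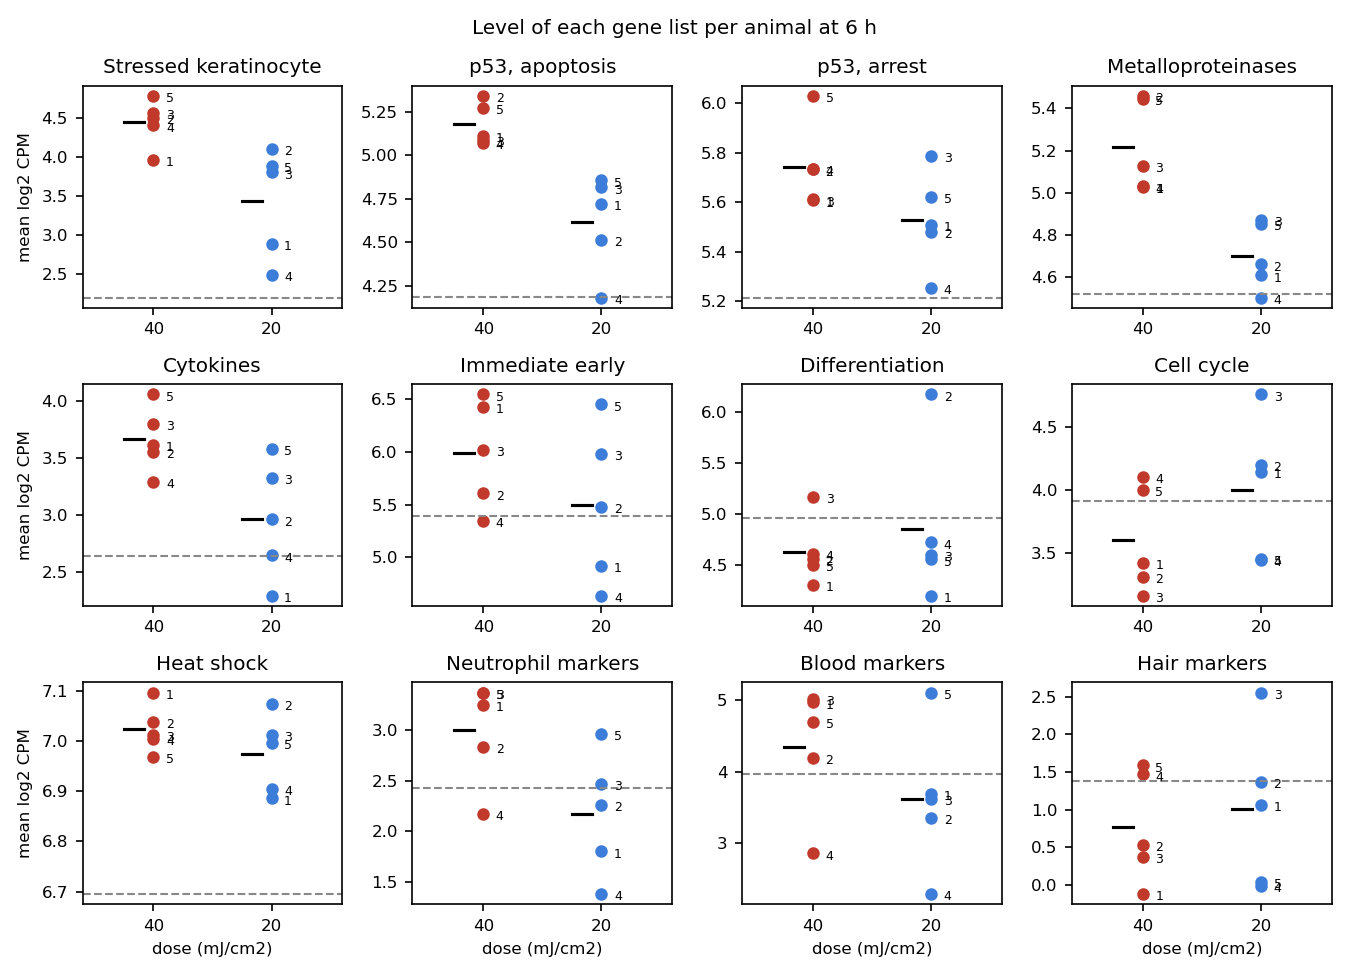
Level of 12 gene lists in each mouse, as the mean log2 CPM of the members tested, at 40 mJ/cm2 (red, left) and 20 mJ/cm2 (blue, right); numbers are replicates, short bars group means and dashed lines the sham mean. Stressed keratinocyte genes, p53 targets and metalloproteinases are higher at 40 mJ/cm2 on average, and replicate 4 of 20 mJ/cm2 is the lowest of its group for each of these.

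Genes of inflammation and tissue remodelling were also higher at 40 mJ/cm2 on average, with wide spreads. The list levels of immediate early genes overlapped, at 5.346 to 6.548 at 40 mJ/cm2 and 4.632 to 6.452 at 20 mJ/cm2. Members of a list were measured in the same mice, so the counts of members above 0 are not independent evidence. Of 29 immediate early genes, 28 were above 0 (median 0.42 log2) and 5 had an unadjusted p under 0.05, against 2.71% of all genes. That median was 0.24 without replicate 1 of 40 mJ/cm2, and 0.27, 0.2 and 0.67 without replicates 1, 4 and 5 of 20 mJ/cm2. Among those were Ier5 (0.53 ± 0.14), the small Maf factor Maff (0.71 ± 0.24) and the AP-1 subunit Fosl2 (0.43 ± 0.17), named after their values were seen, as are the other list members below. Fos itself spanned 50.7 to 598 CPM at 40 mJ/cm2 and 26.7 to 902 CPM at 20 mJ/cm2, with an interval of -1.37 to 2.19. The AP-1 subunit Fosl1 differed by 0.98 ± 0.62. Of 18 NF-kB feedback genes, 15 were above 0 and 3 had an unadjusted p under 0.05 (2.71% of all genes). They were the IkB family member Bcl3 (1.33 ± 0.45), the adhesion molecule Icam1 (0.66 ± 0.23) and Tnfaip2 (0.84 ± 0.34). The levels of the NF-kB list overlapped, at 4.198 to 4.999 at 40 mJ/cm2 and 3.62 to 4.807 at 20 mJ/cm2.

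Of 26 cytokine and chemokine genes, 21 were above 0 and 5 had an unadjusted p under 0.05 (2.71% of all genes), with a median of 0.55. The levels of this list overlapped, at 3.287 to 4.058 at 40 mJ/cm2 and 2.29 to 3.579 at 20 mJ/cm2. Lif, a cytokine of the interleukin 6 family, had 7.35, 10.6, 9.64, 7.13 and 25.4 CPM at 40 mJ/cm2, and 4.35, 2.10, 5.59, 4.34 and 8.02 CPM at 20 mJ/cm2. The difference was 1.29 ± 0.35, and Lif rose against sham at 40 mJ/cm2 (adjusted p = 0.0277), while at 20 mJ/cm2 the adjusted p was 0.992. Il1b averaged 40.8 ± 21.3 CPM at 40 mJ/cm2 and 14.9 ± 14.6 CPM at 20 mJ/cm2, near the sham mean of 16.5 ± 14.7 CPM. Il6 differed by 1.39 ± 0.77, and its groups overlapped. The neutrophil chemoattractant Cxcl5 averaged 6.79 ± 6.02 CPM at 40 mJ/cm2 and 1.26 ± 1.29 CPM at 20 mJ/cm2 (SD, n = 5 each). Il17ra, a receptor of interleukin 17, had 70.8, 95.5, 57.4, 39.3 and 94.8 CPM at 40 mJ/cm2 against 31.7, 31.3, 35.8, 25.0 and 51.8 CPM at 20 mJ/cm2. The groups met only between replicate 4 of the higher dose and replicate 5 of the lower.

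Metalloproteinases and their inhibitors had a median of 0.43 over 20 members, with 6 higher and 1 lower at an unadjusted p under 0.05, against 2.71% and 4.22% of all genes. Without replicate 4 of 20 mJ/cm2 the median was 0.29. The list level ran from 5.03 to 5.46 at 40 mJ/cm2 and from 4.50 to 4.87 at 20 mJ/cm2, without overlap. Besides Mmp10, the aggrecanase Adamts4 differed by 1.6 ± 0.50, the inhibitor Timp1 by 1.22 ± 0.45 and the protease Adamts1 by 0.75 ± 0.29, while Timp4 was lower by -0.61 ± 0.28. Mmp3 (stromelysin 1) differed by 0.47 ± 0.22. Has1, a hyaluronan synthase, differed by 1.31 ± 0.65, with an interval from -0.03 to 2.65. Among growth factors, Epgn (epigen, which binds the EGF receptor) had an interval of -0.01 to 2.02 and Hbegf one of 0.05 to 1.23, but the median of 14 genes of that axis was -0.0029.

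Markers of blood and immune cells were set beside these inflammatory genes, and none passed the adjusted test between the doses. Neutrophil markers had a median of 0.80 over 11 tested of 17, 10 above 0 (median 0.51 without replicate 4 of 20 mJ/cm2), and summed to 209.5 to 265 CPM at 40 mJ/cm2 and 165 to 203 CPM at 20 mJ/cm2. Their list levels overlapped, at 2.18 to 3.38 at 40 mJ/cm2 and 1.38 to 2.96 at 20 mJ/cm2, with a sham mean of 2.43. The lectin Clec4d was the member whose groups did not overlap, at 11.7 to 18.2 CPM at 40 mJ/cm2 against 4.22 to 8.90 CPM at 20 mJ/cm2, and Ly6g, Trem3 and the granule genes Mpo, Elane, Ngp and Camp were too low to be tested. Blood markers (8 of 8 above 0) summed to 128.5 to 691 CPM at 40 mJ/cm2 and 162 to 779 CPM at 20 mJ/cm2, and endothelial markers to 436 to 786 CPM at 40 mJ/cm2 and 449.6 to 767 CPM at 20 mJ/cm2. Monocyte and macrophage markers, 17 of 20 above 0, summed to 1442 to 1929 CPM at 40 mJ/cm2 and 1290.0 to 1566 CPM at 20 mJ/cm2. Of the T cell markers, 13 of 17 were below 0, but they summed to 133.5 to 226 CPM at 40 mJ/cm2 and 111 to 223 CPM at 20 mJ/cm2. Their list levels overlapped, at 1.35 to 1.87 at 40 mJ/cm2 and 1.73 to 2.06 at 20 mJ/cm2. Cd3g, the CD3 gamma subunit of the T cell receptor complex, had 5.84, 1.84, 3.40, 3.92 and 4.64 CPM at 40 mJ/cm2 and 5.28, 8.30, 5.69, 10.7 and 7.94 CPM at 20 mJ/cm2. Only replicate 1 of 40 mJ/cm2 lay within the range of the lower dose, the difference was -0.97 ± 0.27, and Cd3g fell against sham at 40 mJ/cm2 (adjusted p = 0.00393). The part of these cells in the differences above was not tested.

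Since none passed, the rule for named genes took in each direction the 12 with the smallest unadjusted p among annotated genes whose log2 CPM averaged 1 or more and which had one sign in every fit without 1 library. Of the 12 higher at 40 mJ/cm2, 9 were among the 989 genes that differed from sham. DESeq2 called 11 of them (0.114% of all genes) and 6 did not overlap between the doses (0.421% of all genes), counts that follow from choosing the genes on this contrast. H2afj, the histone variant H2A.J, had 31.9, 49.3, 35.5, 39.2 and 43.3 CPM at 40 mJ/cm2 and 23.0, 19.0, 25.5, 15.6 and 25.1 CPM at 20 mJ/cm2. The groups were apart, with a difference of 0.89 ± 0.17 (95% interval 0.53 to 1.25; adjusted p = 0.157). Mcoln2, an endosomal and lysosomal cation channel, had 29.2, 55.1, 13.6, 17.2 and 42.8 CPM at 40 mJ/cm2 and 5.54, 7.86, 12.9, 7.79 and 13.3 CPM at 20 mJ/cm2. The lowest library of the higher dose lay just above the highest of the lower, and the difference was 1.74 ± 0.35 (adjusted p = 0.157).

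In this set, several genes stood near sham at 20 mJ/cm2. Choosing genes with 40 above 20 mJ/cm2 favours low values at 20 mJ/cm2, so this can follow in part from the choice. Mcoln2 had a log2 difference from sham of 2.01 at 40 mJ/cm2 (adjusted p = 0.000919) and of 0.27 at 20 mJ/cm2 (adjusted p = 0.892). The differences from sham at 40 and then 20 mJ/cm2 were 0.89 and 0.18 for Urah, a urate pathway hydrolase, 1.35 and 0.10 for Ccdc85b, and 1.5 and 0.10 for Fam110a. For Polg2, the accessory subunit of the mitochondrial DNA polymerase, they were 0.72 and -0.13. Aqp3, the water and glycerol channel of keratinocytes, differed by 1.04 ± 0.27 between the doses and rose against sham at both, with 189, 214, 173, 227 and 205 CPM at 40 mJ/cm2, and 102, 71.6, 85.2, 67.9 and 167 CPM at 20 mJ/cm2. Hexim1, an inhibitor of the elongation factor P-TEFb, differed by 0.61 ± 0.15, and the small nucleolar RNA host gene Snhg17 by 0.64 ± 0.16.

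Of the 12 genes lower at 40 mJ/cm2, 9 were among the 989. They too were chosen on this contrast, and beside that DESeq2 called 12 (0.126% of all genes) and 9 did not overlap (0.445% of all genes). Tppp, a tubulin polymerisation promoting protein, had 23.9, 21.7, 23.0, 25.1 and 26.6 CPM at 40 mJ/cm2 and 34.3, 51.6, 37.6, 65.3 and 35.3 CPM at 20 mJ/cm2. The higher dose was tightly grouped below the other, with a difference of -0.90 ± 0.17 (95% interval -1.26 to -0.54; adjusted p = 0.157). Il20ra, a receptor chain for interleukins 19, 20 and 24, had 11.8, 4.28, 6.14, 9.14 and 5.52 CPM at 40 mJ/cm2 and 13.8, 16.9, 12.0, 29.2 and 14.8 CPM at 20 mJ/cm2. These groups were also apart (-1.24 ± 0.26). The heparan sulfate sulfotransferase Hs3st3b1 differed by -0.93 ± 0.18, the phosphoinositide 3-kinase subunit Pik3cb by -0.68 ± 0.14 and the kinesin Kif21a by -0.86 ± 0.19. The fatty acid transporter Slc27a6 differed by -1.13 ± 0.25, the carnitine synthesis enzyme Bbox1 by -0.99 ± 0.22, the phosphatase Ptpn13 by -0.74 ± 0.16 and the receptor Tnfrsf19 (Troy) by -0.88 ± 0.19. Fam81a, Mcc and Ralgps2 overlapped between the doses and differed by -1.29 ± 0.24, -0.68 ± 0.14 and -0.93 ± 0.21.

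These genes spanned more of the genome than those on the other side, with medians of 69.6 kb for the 12 lower genes and 6.67 kb for the 12 higher ones. The span of the 12 lower genes, from the GENCODE vM21 annotation, ran from 26.4 kb (Tppp) to 387 kb (Mcc), and that of the 12 higher ones from 1.25 kb (Lce3c) to 45.7 kb (Mcoln2). Over all genes tested, the median difference between 40 and 20 mJ/cm2 was 0.14 for 5280 genes under 10 kb and 0.05 for 5013 genes of 10 to 30 kb. It was -0.10 for 4294 genes of 30 to 100 kb, -0.19 for 1271 of 100 to 200 kb, -0.22 for 600 of 200 to 500 kb and -0.27 for 137 of 500 kb and more. Against sham, the genes of 500 kb and more had medians of -0.88 at 40 mJ/cm2 and -0.59 at 20 mJ/cm2, and 64 and 26 of the 137 fell, where 4.57% and 0.595% of all genes did. For the 737 genes of 200 kb and more, the median level relative to all 6 h libraries was -0.25, -0.36, -0.42, -0.20 and -0.44 log2 at 40 mJ/cm2 and -0.21, -0.08, -0.14, 0.15 and -0.34 at 20 mJ/cm2. Replicate 4 of 20 mJ/cm2 stood above the rest, and replicates 1 and 5 lay within the range of the higher dose. Without replicate 4 of 20 mJ/cm2 the median of these 737 genes was -0.14, against -0.23 with it, and with the mitochondrial share as a covariate it was -0.11. Within the title endings it was -0.18 (R1_001) and -0.33 (R1). For genes under 10 kb the median changed sign between the endings, with 0.245 (R1_001) and -0.050 (R1), as it did for genes of 10 to 30 kb, with 0.084 and -0.012. With the mitochondrial share as a covariate the median of genes under 10 kb was 0.079.

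**Figure D4:**
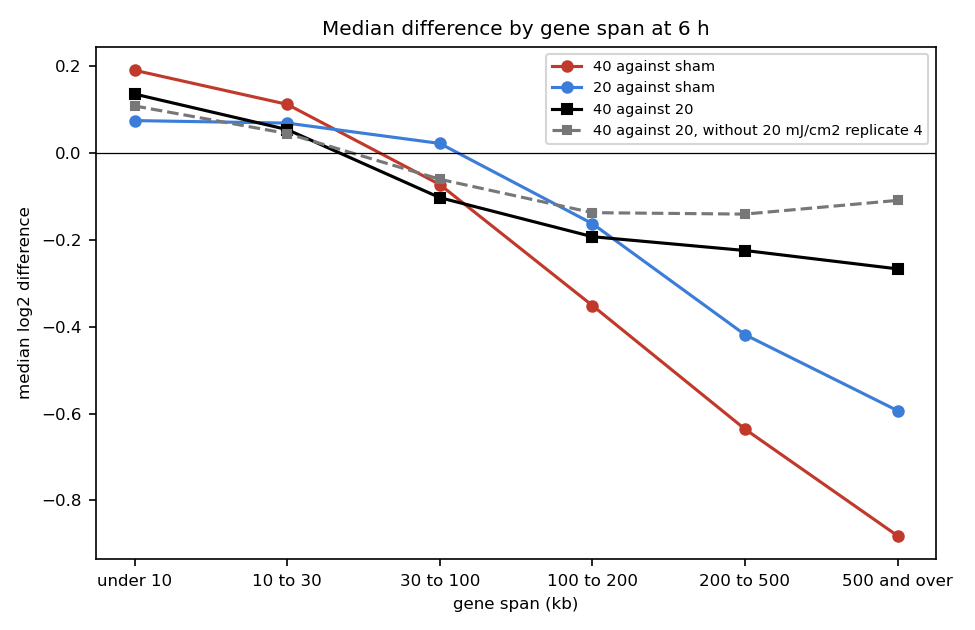
Median log2 difference of genes grouped by span, in kb, for 40 against sham (red), 20 against sham (blue), 40 against 20 mJ/cm2 (black) and the last without replicate 4 of 20 mJ/cm2 (grey, dashed). The median of 40 against 20 mJ/cm2 goes down to -0.27 in the group of 500 kb and more, and to -0.11 in that group without the one library.

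Among the very long genes of the panel, the endophilin gene Sh3gl2 (434 kb) had 1.84, 0.782, 0.657, 1.51 and 0.774 CPM at 40 mJ/cm2 and 2.11, 4.63, 2.48, 1.89 and 3.81 CPM at 20 mJ/cm2. The groups did not overlap, and the difference was -1.49 ± 0.31 (95% interval -2.14 to -0.85; edgeR adjusted p = 0.179, DESeq2 adjusted p = 0.00277). Sh3gl2 fell against sham at both doses (adjusted p = 9.76e-06 and 0.00747 at 40 and 20 mJ/cm2), where sham skin had 9.36 ± 1.30 CPM. The axon guidance receptor Robo2 (520.0 kb) differed by -0.99 ± 0.34, the teneurin Tenm4 (739.8 kb) by -0.69 ± 0.38 and the latrophilin Adgrl3 (805 kb) by -0.91 ± 0.52. The exchanger Slc24a3 (474 kb) had 14.4 CPM in replicate 1 of 40 mJ/cm2 and 0.603 to 4.82 CPM in the other 4, against 1.86 to 5.15 CPM at 20 mJ/cm2. Its difference was 0.21 ± 0.55 with that library and -0.64 without it.

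A few genes had a clear response to ultraviolet light and a bounded difference between the doses, with the whole 95% interval inside 1.5-fold either way. Over all genes tested this held for 4471 (26.9%), and among the 989 responsive genes for 286 (28.9%), a share near that background. Of 352 responsive genes with at least a 2-fold mean response it held for 10, chosen after their values were seen. The intervals of these 352 were wide, with median widths of 1.45 log2 for 113 rises and 1.47 for 239 falls, where the bound allows 1.17. Klk11, a kallikrein-related serine protease of the epidermis, was the 1 rise, at 32.9, 33.0, 46.2, 47.2 and 37.3 CPM at 40 mJ/cm2 and 34.6, 48.9, 41.8, 38.5 and 37.9 CPM at 20 mJ/cm2. Sham skin held 19.8 ± 2.05 CPM, and Klk11 rose at both doses (adjusted p = 0.00374 and 0.0185 at 40 and 20 mJ/cm2). The ranges at the 2 doses overlapped almost wholly, with a difference of -0.03 ± 0.20.

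The other 9 bounded genes fell, and their spans were 308 to 599 kb. Agap1, a GTPase activating protein for Arf, had 21.4, 13.7, 21.8, 11.8 and 11.1 CPM at 40 mJ/cm2, against 18.1, 14.6, 17.1, 12.7 and 16.4 CPM at 20 mJ/cm2. Sham skin held 34.2 ± 3.86 CPM, and the difference between the doses was -0.01 ± 0.17 (95% interval -0.36 to 0.34). Prkcb, protein kinase C beta, averaged 5.75 ± 1.22 CPM at 40 mJ/cm2, 5.98 ± 1.26 CPM at 20 mJ/cm2 and 14.2 ± 1.73 CPM in sham skin (SD, n = 5 each). The others were the Rac activator Dock1, the Rab regulator Tbc1d5, the focal adhesion protein Lpp, the exoribonuclease Dis3l2, neurobeachin (Nbea), the SNARE Vti1a and protein kinase D1 (Prkd1), with differences of -0.10 to 0.04. The title endings gave opposite signs for all of these 9 genes but Lpp and Nbea. The difference of Agap1 was 0.21 among R1_001 libraries and -0.38 among R1 libraries, that of Tbc1d5 0.17 and -0.44, and that of Dis3l2 0.33 and -0.51. In the same order it was 0.16 and -0.37 for Dock1, 0.14 and -0.31 for Vti1a, 0.30 and -0.35 for Prkd1, and 0.0075 and -0.16 for Prkcb. Klk11, the rise, also changed sign, with -0.14 and 0.11.

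**Figure D5:**
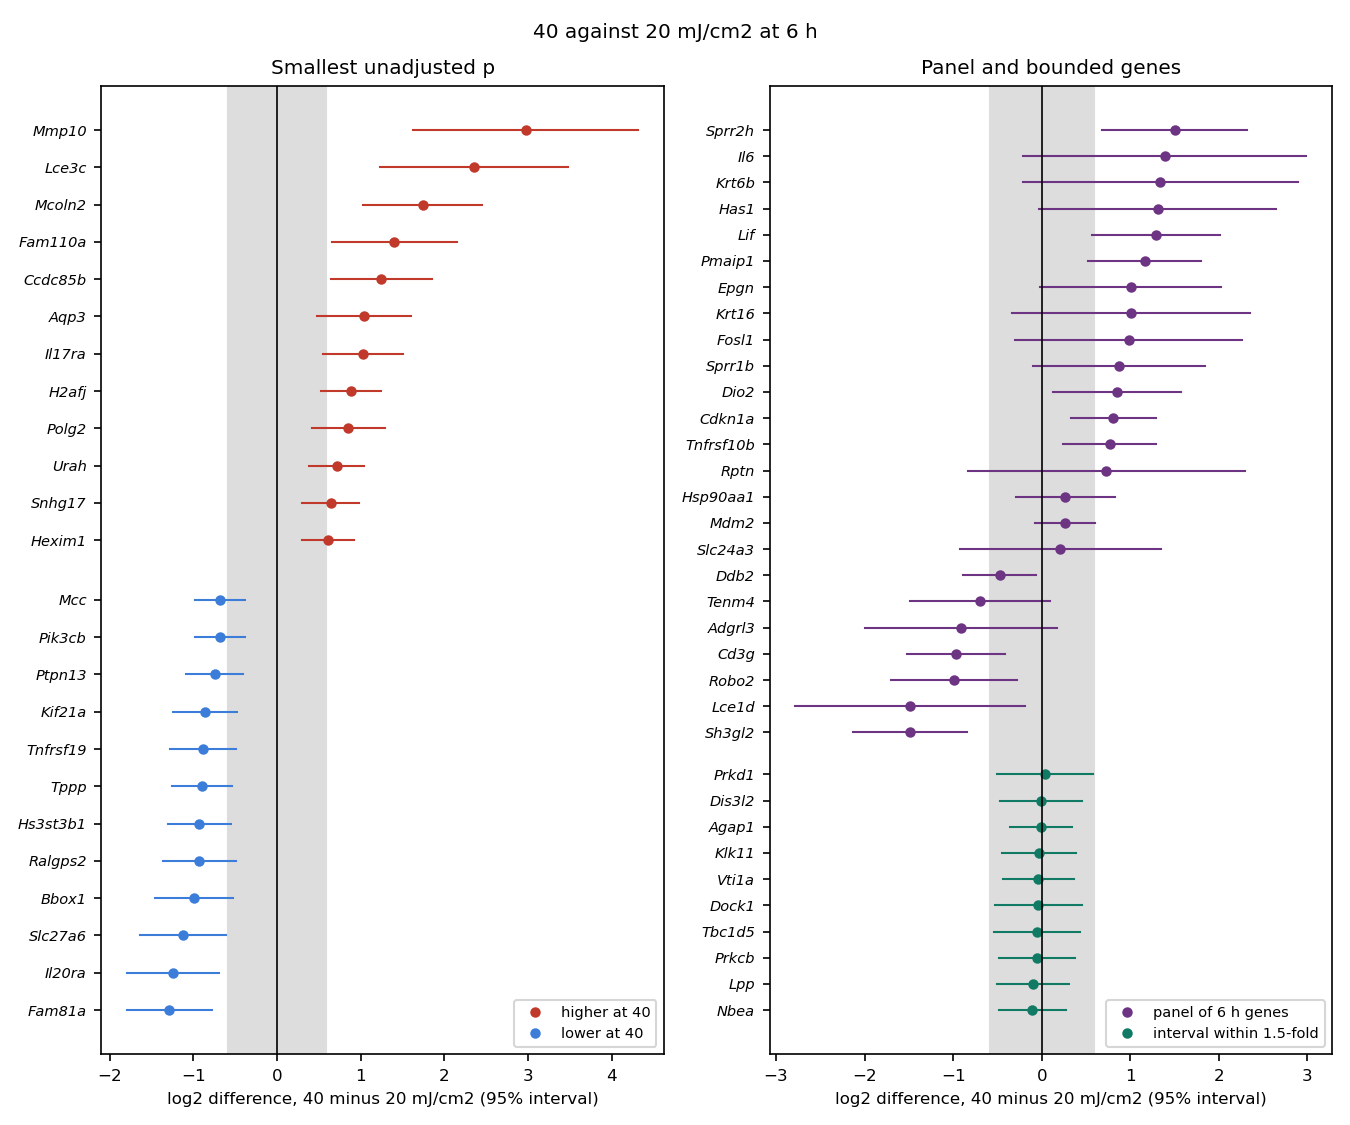
Log2 difference between 40 and 20 mJ/cm2 with its 95% interval for the 24 genes named by smallest unadjusted p among those whose log2 CPM averaged 1 or more (left; red higher, blue lower at 40 mJ/cm2) and for 24 panel genes and the 10 bounded genes (right; purple and green). Grey bands mark 1.5-fold either way; the intervals of the 10 bounded genes lie inside the band, while those of Krt6b, Rptn and Slc24a3 span 0 widely.

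The doubling before it was set beside the last one in the same fit, in which both share the 20 mJ/cm2 mice. Between 20 and 10 mJ/cm2, 2667 genes had an unadjusted p under 0.05 (16.0%; 9.95% up, 6.09% down) and 2 passed (0.012%), Sprr2h and Dio2, with differences of 3.28 and 2.48. The last doubling gave 1.5 for Sprr2h and 0.85 for Dio2, the deiodinase that activates thyroid hormone. Among R1_001 and then R1 libraries it gave 1.3 and 1.825 for Sprr2h, but 0.18 and 1.985 for Dio2. The 40 and 20 mJ/cm2 groups of Dio2 overlapped. The difference of the 2 steps was -1.78 ± 0.71 for Sprr2h and -1.63 ± 0.60 for Dio2. Both were chosen by a large step from 10 to 20 mJ/cm2, and high values at 20 mJ/cm2 shrink the last step. A smaller last step can therefore follow in part from that choice. Over all genes, edgeR called 0 for the difference of the steps after adjustment, with 1199 genes below an unadjusted p of 0.05 (7.21%). Pmaip1 took steps of 1.82 and 1.17 and Cdkn1a of 0.39 and 0.81. Lif, with -0.15 and 1.29, and H2afj, with 0.09 and 0.89, differed little in the step before the last, and H2afj was chosen on the last step.

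Epidermal differentiation and cell cycle genes lay on the other side. Differentiation genes had a median of -0.35 over 45 members, 34 below 0 and 7 with an unadjusted p under 0.05, all lower at 40 mJ/cm2 (4.22% of all genes). That median rested on replicate 2 of 20 mJ/cm2 and was 0.048 without it. Keratin 1 (Krt1) stood at 1368 CPM at 40 mJ/cm2 and 2230.0 CPM at 20 mJ/cm2, where replicate 2 had the highest value, and Lce1d, a late cornified envelope gene, fell against sham at 40 mJ/cm2 (adjusted p = 0.0162) and differed by -1.49 ± 0.62 between the doses, or by -0.56 without replicate 2 of 20 mJ/cm2. The late barrier gene Flg had 314 CPM in replicate 2 of 20 mJ/cm2 and 6.07 to 30.6 CPM in the other 4. Cell cycle genes had a median of -0.42, with 40 of 45 below 0 and 7 lower at an unadjusted p under 0.05 (4.22% of all genes), among them the mitotic genes Cenpf (-1.39 ± 0.54) and Ccnb1 (-1.21 ± 0.56). The median was -0.23, -0.63 and -0.65 without replicates 3, 4 and 5 of 20 mJ/cm2, and its sign depended on the title ending: -1.08 among R1_001 libraries and 0.55 among R1 libraries. Hair shaft and follicle markers split in the same way, -1.71 and 0.95, with a median of -0.62 (0.042 without replicate 3 of 20 mJ/cm2, -0.36 without replicate 3 of 40 mJ/cm2) and sums of 26.2 to 52.8 CPM at 40 mJ/cm2 and 21.4 to 100 CPM at 20 mJ/cm2, and melanocyte markers likewise (-1.57 and 0.27). Of 22 hair markers, 10 keratins were too low to be tested. The part of hair follicles in the cell cycle difference was not tested.

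The same contrast was measured in other mice at later times. At 0 h, 1 gene passed (0.00593%) and 321 had an unadjusted p under 0.05 (1.9%). After adjustment 51 genes passed at 24 h (0.3%), 1418 at 48 h (8.24%), 40 at 72 h (0.238%) and 1 at 96 h (0.00585%). Of the 12 genes higher at 40 mJ/cm2 at 6 h, Mmp10 did not pass the filter on low counts at the other times. Of the other 11, 10 were above 0 at 24 h, and Mcoln2 passed there (1.77, adjusted p = 0.0494). Of the 12 lower genes, 10 were below 0 at 24 h and Il20ra passed (-1.29, adjusted p = 0.0488). At 48 h 4 of these 11 higher genes and 1 of the lower passed in the same direction, where 3.67% and 4.57% of all genes did. Among them were Il17ra (1.44), Mcoln2 (1.57) and Aqp3 (1.2), while H2afj was at -0.46 there (adjusted p = 0.119). Krt6b, at 1.34 at 6 h, was at 1.34 at 24 h, at 4.19 at 48 h (adjusted p = 0.00126) and at 8.47 at 72 h (adjusted p = 0.058). At 0 h, 7 of the 11 higher and 7 of the 12 lower genes had the sign they had at 6 h. A test of whether the difference at 24 h was unlike that at 6 h called 0 genes, with 1314 at an unadjusted p under 0.05 (7.53%). Of the panel, Pmaip1 (1.43) and Tnfrsf10b (1.32) passed upward at 24 h, both with an adjusted p of 0.0494. Sh3gl2 (-1.07, adjusted p = 0.0254) and Slc24a3 (-1.58, adjusted p = 0.0135) passed downward there.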

How the data were processed

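The authors deposited one table of estimated counts (expected counts, 12.6% of values not whole) for 55416 genes, not normalized. The submitters' processing notes name STAR 2.7.10a, fastp 0.23.0, the build GRCm39 and bcl2fastq 2.20.422, and no source used here gives the counting program or annotation. Per the labels' protocols, libraries were stranded poly(A) RNA read as single 75 base reads. Counts were rounded and the 24 libraries of 6 h with at least 1 M counts (M, mega) were fitted together with edgeR 4.0.16 in R 4.3.3 (TMM scaling, filter on low counts, title ending as covariate, quasi-likelihood test, Benjamini-Hochberg adjustment over 16630 genes, threshold 0.05). 1 library of 10 mJ/cm2 was left out for depth. Alternatives included DESeq2 1.42.0, other filters and covariates, and each library left out. CPM are counts per M of TMM-scaled library. Named genes were the 12 each way with the smallest p, none with an adjusted call, among annotated genes whose log2 CPM averaged 1 or more and which had one sign in every fit without 1 library, plus a panel of 25. Panel, lists and members were chosen with earlier results of these data known. Scripts were tested on simulated data. Replicates are separate mice, and p-values measure the spread between them. Spans came from GENCODE vM21, on another build.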

Additional observations from a re-analysis of the deposited data

Results flagged for a closer look

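In 4 of 116 groups of 5 libraries tested (3.45%), the highest or lowest library stood far from the others, where chance flags about 1 in 20 groups. Mmp10 was lowest in replicate 4 of 20 mJ/cm2, at 0.334 CPM. Ccdc85b was lowest in replicate 4 of 40 mJ/cm2, at 8.44 CPM. Krt6b was lowest in replicate 1 of 40 mJ/cm2, at 72.6 CPM. Tbc1d5 was highest in replicate 1 of 40 mJ/cm2, at 15.5 CPM.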

How the results depend on the processing

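Between 40 and 20 mJ/cm2, 3 genes were called with no low-count filter, 4 among R1_001 libraries alone, 40 by DESeq2, and 0 to 6 when 1 library was left out (6 without replicate 1 of 40 mJ/cm2). Genes at an unadjusted p under 0.05 numbered 576 with the 10 libraries alone, 3925 among R1_001 libraries, 335 among R1 libraries and 688 to 3982 with 1 library left out (3982 without replicate 5 of 20 mJ/cm2). For 40 mJ/cm2 against sham the count was 2155 with muscle level and 2243 with mitochondrial share as covariate, 631 among R1_001 and 0 among R1 libraries, and 727 to 1538 with 1 library left out. For 20 mJ/cm2 against sham it was 90 with all 25 libraries, 100 with no filter, 391 with muscle level, 543 with mitochondrial share, 58 among R1_001, 0 among R1, 262 without replicate 4 of both doses (an alternative chosen after seeing the data), 432 by DESeq2 and 53 to 217 with 1 library left out. For 20 against 10 mJ/cm2 it was 1 with all 25 libraries, 12 with no filter, 18 with muscle level, 0 among R1, 123 by DESeq2 and 0 to 3 with 1 library left out. At 24 h, leaving out 1 library gave 7 to 69 genes between the doses and 316 to 1007 for 40 mJ/cm2 against sham. For the rises and falls called against sham at 24 h, the R1 libraries of 6 h alone gave median 40 minus 20 differences of 0.54 and -0.54. The sign reversed for Rptn (-0.89 among R1_001 libraries, -0.013 without replicate 4 of 40 mJ/cm2, -0.28 without replicate 4 of both doses; range with 1 library left out -0.013 to 1.97) and Slc24a3 (-0.0068 with muscle level, -2.01 among R1 libraries, -0.64 without replicate 1 of 40 mJ/cm2, -0.0085 without replicate 3 of 20 mJ/cm2; range -0.64 to 0.57). The cause was not tested. Of 1333 values of single genes under alternatives, 1286 kept their direction and side of the threshold. R1 libraries alone leave 2 mice a dose. No paired analysis was possible because the mice carry no replicate numbers shared between groups. A list of genes called at 5 and 10 mJ/cm2 was empty, so its alternatives were not run. With 5 mice a dose and a biological coefficient of variation of 0.335, differences of low genes had wide intervals.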
